A study of Homo sapiens with 4 samples.

Results

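The globin promoters comprised the 10 functional genes of the human beta-globin and alpha-globin clusters among 28775 promoters whose accessibility was counted by ATAC-seq, an assay that uses a transposase to cut and tag open DNA. They were taken by gene symbol. The 5 members on chromosome 11 were HBB, HBD, HBG1, HBG2 and HBE1, and the 5 on chromosome 16 were HBA1, HBA2, HBZ, HBM and HBQ1. HBB was selected on its promoter counts and fold change in the comparison of these same libraries, so its values are a description and carry no p-value. The other 9 genes were chosen by family membership.

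The libraries came from HEK293T, an established human embryonic kidney line carrying the SV40 large T antigen, labelled wild type for MORC2. In the overexpression group (n = 2) the cells were transfected with the plasmid pBacMam-MORC2-meGFP, which encodes the DNA-compacting ATPase MORC2 with a green fluorescent tag. Control cells (n = 2) were given lipofectamine, the transfection reagent, and whether they also got an empty plasmid is not stated in their labels. MORC2, plasmid DNA and the fusion tag followed the same groups and cannot be told apart, and the plasmid sequence was not analysed here. The labels do not give separate cultures for the replicates. In the paper, the figure legend gives n = 2 for this comparison, and for the panel before it defines n as biological replicates. How the replicate cultures were kept apart is not described. The tests therefore measure only the spread between these libraries, part of which may be technical.

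Haemoglobin carries oxygen in red blood cells as a tetramer of alpha-type and beta-type chains. Each cluster is read in a developmental order, with embryonic genes (HBE1, HBZ) used first, then fetal genes (HBG1, HBG2) in the beta cluster, then adult genes (HBB, HBD, HBA1, HBA2). Distal enhancers, called the locus control region at the beta cluster, and erythroid factors such as GATA1 and KLF1 open these promoters in erythroid cells, whereas kidney-derived cells do not normally make haemoglobin.

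The 250 bases upstream of the start sites of HBD and HBM are shown because these 2 of the 10 members matched the RefSeq promoter table (GRCh38.p14), 1 from each cluster. They are printed 5′ to 3′ on the strand of the gene, with the motifs found in capitals.
HBD, chr11:5234484-5234733, minus strand: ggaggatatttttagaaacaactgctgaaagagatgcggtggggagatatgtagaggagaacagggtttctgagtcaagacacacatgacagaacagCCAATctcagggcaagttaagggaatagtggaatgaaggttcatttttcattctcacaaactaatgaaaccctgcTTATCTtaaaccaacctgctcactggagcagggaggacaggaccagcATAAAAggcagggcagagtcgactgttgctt
HBM, chr16:165728-165977, plus strand: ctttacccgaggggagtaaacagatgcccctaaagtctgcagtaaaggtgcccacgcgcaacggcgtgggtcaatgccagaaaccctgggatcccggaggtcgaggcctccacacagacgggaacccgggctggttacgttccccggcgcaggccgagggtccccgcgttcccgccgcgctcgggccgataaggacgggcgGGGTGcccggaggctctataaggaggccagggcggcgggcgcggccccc

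The HBD sequence was AT-rich, with a GC content of 45.2% and 2 CpG dinucleotides, whereas that of HBM had a GC content of 69.2% and 27 CpG dinucleotides. The medians over all 35116 windows of this length were 58.0% and 11. Short motifs known from globin promoters were searched on both strands. They were the CCAAT box, the core CACCC of the boxes bound by KLF factors, a pair of TATA-type boxes that overlap in sequence and a pair of GATA-type sites. HBD held CCAAT, found in 32.0% of windows, starting 153 bases before the start site. It also held AGATAA, read as TTATCT and found in 9.17% of windows, at 78 bases, and ATAAAA, found in 14.8%, at 31 bases. HBM held CACCC, read as GGGTG and found in 54.7% of windows, at 49 bases. The TATA-type box TATAAA, found in 10.7% of windows, was in neither sequence. Neither held the GATA-type site TGATAA, found in 6.66%. Only these exact letters were searched, so variants of the boxes and sites were not looked for. A match describes the letters alone, and the counts below refer to whole promoter windows on another assembly.

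Depth differed between the groups. The control libraries held 8279528 and 10255182 promoter counts in total, and the overexpression libraries 3734519 and 7211724. Mitochondrial promoters took 51.9% to 55.6% of them in control and 73.8% to 74.7% in overexpression. The part of depth and mitochondrial share in the results below was not tested. Levels are given as CPM scaled by TMM (trimmed mean of M values), and since all windows had the same length of 2 kb, levels of different genes can be compared. How uniquely reads align to each window was not measured, and it can lower the levels of near-identical copies. A promoter was called changed at an edgeR quasi-likelihood adjusted p under 0.05, which 577 of 23407 tested promoters (2.47%) met, 1.16% higher and 1.3% lower in overexpression. An unadjusted edgeR p under 0.05 was met by 17.2%. The median log2 fold change over all tested promoters was 0.0099.

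HBB, which encodes the adult beta chain, had few promoter counts in control cells and some of the highest counts of nuclear promoters in cells transfected with the MORC2 plasmid. The table does not separate fragments of chromosomal HBB from any plasmid DNA that aligned there, so open chromatin at HBB and plasmid DNA cannot be told apart as the source of these counts. The HBB promoter (Entrez 3043) had 13 and 9 counts in control against 411 and 362 in overexpression. Its level was 0.926 and 0.865 CPM in control, and 76.6 and 124.0 CPM in overexpression. The groups lay far apart, and the overexpression counts were larger even before scaling although those libraries were shallower. The mean level went from 0.896 ± 0.0431 (SD, n = 2) to 100.3 ± 33.5 CPM (SD, n = 2), a fitted log2 fold change of 6.71 (SE 0.323). HBB passed the filter on low counts only through its overexpression libraries.

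**Figure D1:**
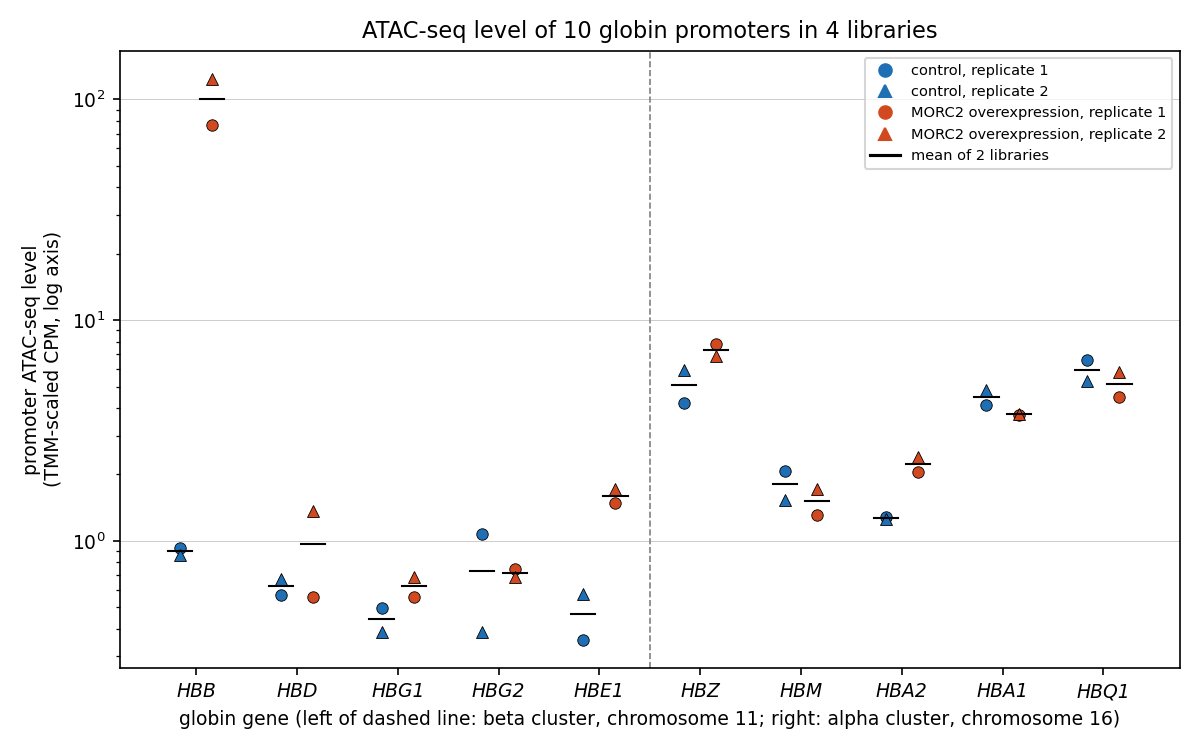
Level of the 10 globin promoters in each library, as TMM-scaled CPM on a log axis, with points for the 2 control and 2 overexpression libraries and lines for the means of 2. HBB alone moves across the plot, from 0.865 and 0.926 CPM to 76.6 and 124.0 CPM, while the other 9 promoters stay between 0.356 and 7.83 CPM.

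Among 28738 nuclear promoters, HBB ranked 23899 by mean level in control and 4 in overexpression. For the median nuclear promoter the level was 7.04 CPM in control and 7.64 CPM in overexpression, so HBB lay below the median in one group and far above it in the other. The 1831 tested promoters whose control level was within 1.5-fold of that of HBB had a median log2 fold change of 0.56, and the highest of them reached 2.06. At this level a promoter could pass the filter on low counts through its overexpression libraries, as HBB did, so this median is no neutral background. Over all tested promoters the next fold change after HBB was 2.32 on the log2 scale, a gap of 4.40, and 5 promoters, HBB included, reached a log2 fold change of 2. That gap depended on the filter and the libraries. Without the filter on low counts HBB was at 6.69 and the next promoter at 5.59, and without control replicate 1 they were at 6.76 and 4.05. The 5 next by fold with the filter were LINC02124, MIR6814, LILRB1, LOC102723692 and SMURF2P1-LRRC37BP1, at 1.99 to 2.32, with 3 to 18 counts in any library.

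**Figure D2:**
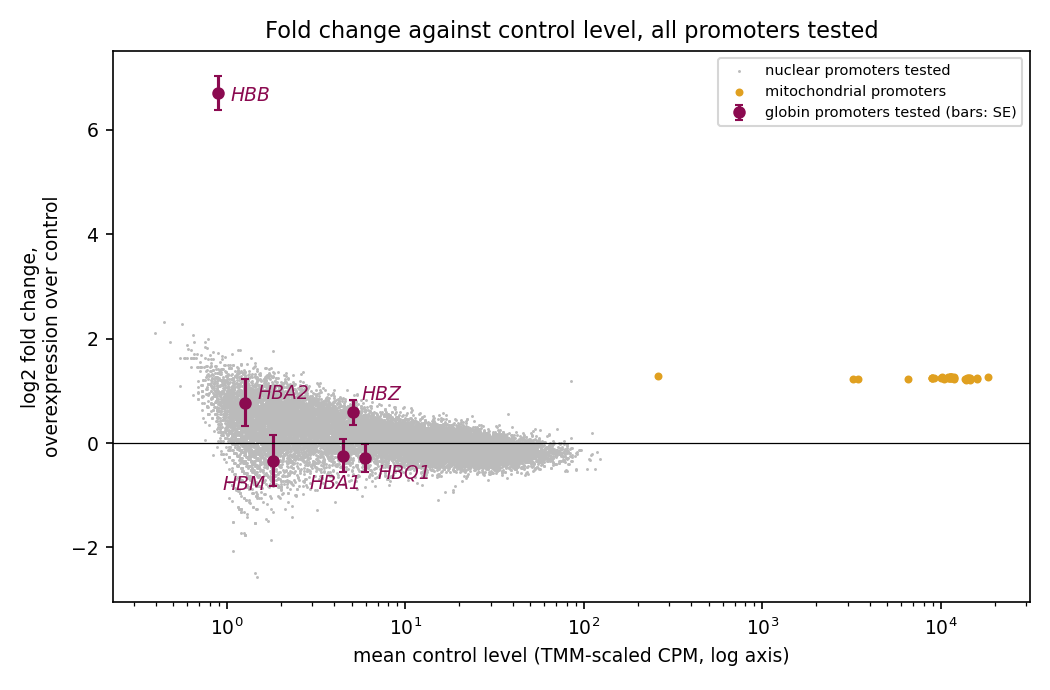
Log2 fold change (overexpression over control) of every tested promoter against its control level in CPM on a log axis, with standard errors for the tested globin promoters. Mitochondrial promoters lie at the right. HBB sits at 6.71, with no other tested promoter above 2.32.

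The 4 ratios of a single overexpression library to a single control library were 6.37, 6.47, 7.07 and 7.16 on the log2 scale. Between the control replicates the HBB ratio was −0.10. Between the overexpression replicates it was 0.70, with the shallower library 1.62-fold higher in CPM. This ratio was larger than at any of the 61 other nuclear promoters within 1.5-fold of the overexpression level of HBB, for which it lay between −0.32 and 0.17 with a median of −0.11. HBB therefore varied more between the overexpression libraries than promoters of like level, by an amount that was small beside the difference between groups.

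The promoters most like HBB were taken as the 5 with the smallest distance between profiles over the 4 libraries, after centring of the log2 levels. They were LINC02124, MIR6814, EFS, PRAMENP and LOC102723692, at distances of 4.50 to 4.65, where a flat profile has a distance of 6.15. The closest, the non-coding RNA gene LINC02124, had 7 and 4 counts in control against 10 and 9 in overexpression. Its log2 fold change was 2.32 (SE 0.568). MIR6814, a microRNA gene, had 5 and 8 counts in control against 13 and 9 in overexpression, and its log2 fold change was 2.29. No tested promoter thus had a profile near that of HBB, and the nearest were low-count promoters with several-fold changes.

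The other beta-globin promoters were low in both groups. HBD encodes the delta chain of the minor adult haemoglobin. Its promoter (Entrez 3045) had 8 and 7 counts in control against 3 and 4 in overexpression, or 0.570 and 0.673 CPM against 0.559 and 1.37 CPM, and the groups overlapped. HBG1 (Entrez 3047), a fetal gamma gene, had 7 and 4 counts in control against 3 and 2 in overexpression, or 0.499 and 0.384 CPM against 0.559 and 0.685 CPM. HBG2 (Entrez 3048), the other gamma gene, had 15 and 4 counts in control against 4 and 2 in overexpression, or 1.07 and 0.384 CPM against 0.746 and 0.685 CPM, with overlapping groups. The gamma genes are near-identical copies and reads of low mapping quality were removed, so the split between them is uncertain and the counts of both may be too low. HBE1 (Entrez 3046), the embryonic epsilon gene, had 5 and 6 counts in control against 8 and 5 in overexpression, or 0.356 and 0.577 CPM against 1.49 and 1.71 CPM. Both overexpression levels of HBE1 lay above both control levels.

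None of these 4 promoters passed the filter on low counts. In a fit without the filter, where 1.96% of promoters were called, none was called by edgeR. The log2 fold change of HBE1 in that fit was 1.74 (SE 0.659), with an edgeR p of 0.00771 and an adjusted p of 0.132. Those of HBD, HBG1 and HBG2 were 0.43 (SE 0.738), 0.39 (SE 0.888) and −0.12 (SE 0.748), with edgeR adjusted p-values of 0.825 to 0.958. At counts of 2 to 15, a difference of the size of these errors was not detectable.

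As a share of the counts at the 5 beta-globin promoters, HBB made up 27.1% (13 of 48, exact 95% binomial interval from 15.3% to 41.8%) and 30.0% (9 of 30, 14.7% to 49.4%) in the control libraries. In the overexpression libraries it made up 95.8% (411 of 429, 93.4% to 97.5%) and 96.5% (362 of 375, 94.1% to 98.1%). HBB was selected on these counts, so the shares are a description, and the intervals cover counting error only. Because it is taken within a library, this share does not depend on library scaling. The 4 other beta-globin promoters summed to 2.49 and 2.02 CPM in control and to 3.36 and 4.45 CPM in overexpression. Their summed level was 1.73 times higher in overexpression (0.79 on the log2 scale), against 112.0 times for HBB. These sums rest on 35 and 21 counts in control against 18 and 13 in overexpression, and none of the 4 was called. For scale, tested promoters within 1.5-fold of the control level of HBB, no neutral background, had a median log2 fold change of 0.56.

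**Figure D3:**
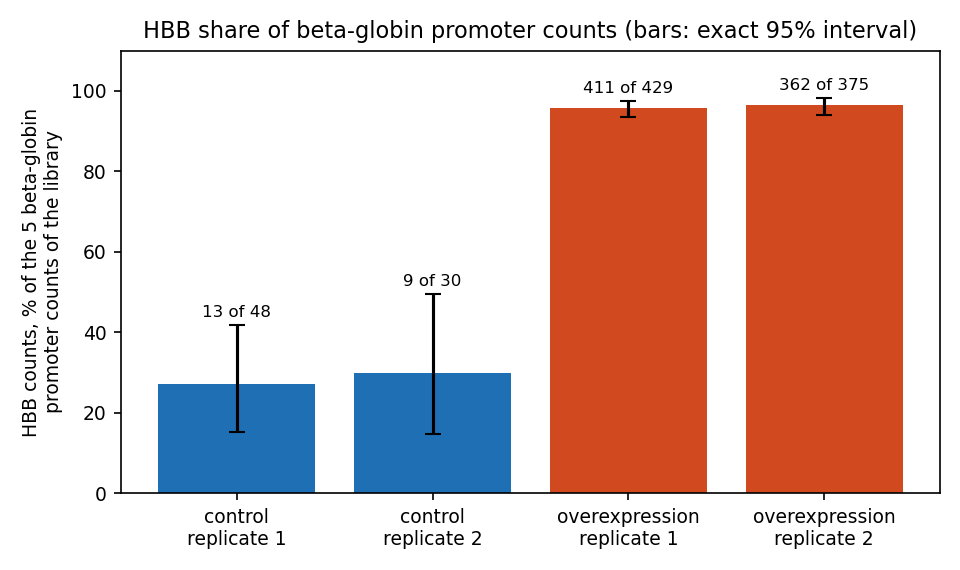
Percent of the counts at the 5 beta-globin promoters that fell at HBB in each library, with exact 95% binomial intervals as error bars. The 2 control libraries sit at 27.1% and 30.0% and the 2 overexpression libraries at 95.8% and 96.5%.

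Promoters around HBB had few counts in both groups. Between HBB and HBE1 lie 2 other counted genes. The pseudogene HBBP1 had 22 and 7 counts in control against 11 and 5 in overexpression, and its log2 fold change was 0.70 (SE 0.472, edgeR adjusted p 0.463), and the non-coding RNA gene BGLT3 had 6 and 6 counts against 4 and 6. The 10 counted promoters on each side of the cluster were mostly those of olfactory receptor genes, a family used in smell. Those 20 promoters had between 0 and 20 counts in any library. Of the 6 tested, 0 were called by edgeR, DESeq2 or limma-voom, beside 2.47% of all tested promoters by edgeR. An unadjusted edgeR p under 0.05 was met by 0 of them, beside 17.2%. The median log2 fold change of the 6 was 0.46, with a range from −0.02 to 0.93. The others did not pass the filter on low counts, and in the fit without it their log2 fold changes lay between −0.88 and 1.36. The immediate neighbours were OR51V1 on the HBB side, with 11 and 2 counts in control against 4 and 2 in overexpression, and OR51B4, with 8 and 3 counts against 1 and 1.

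**Figure D4:**
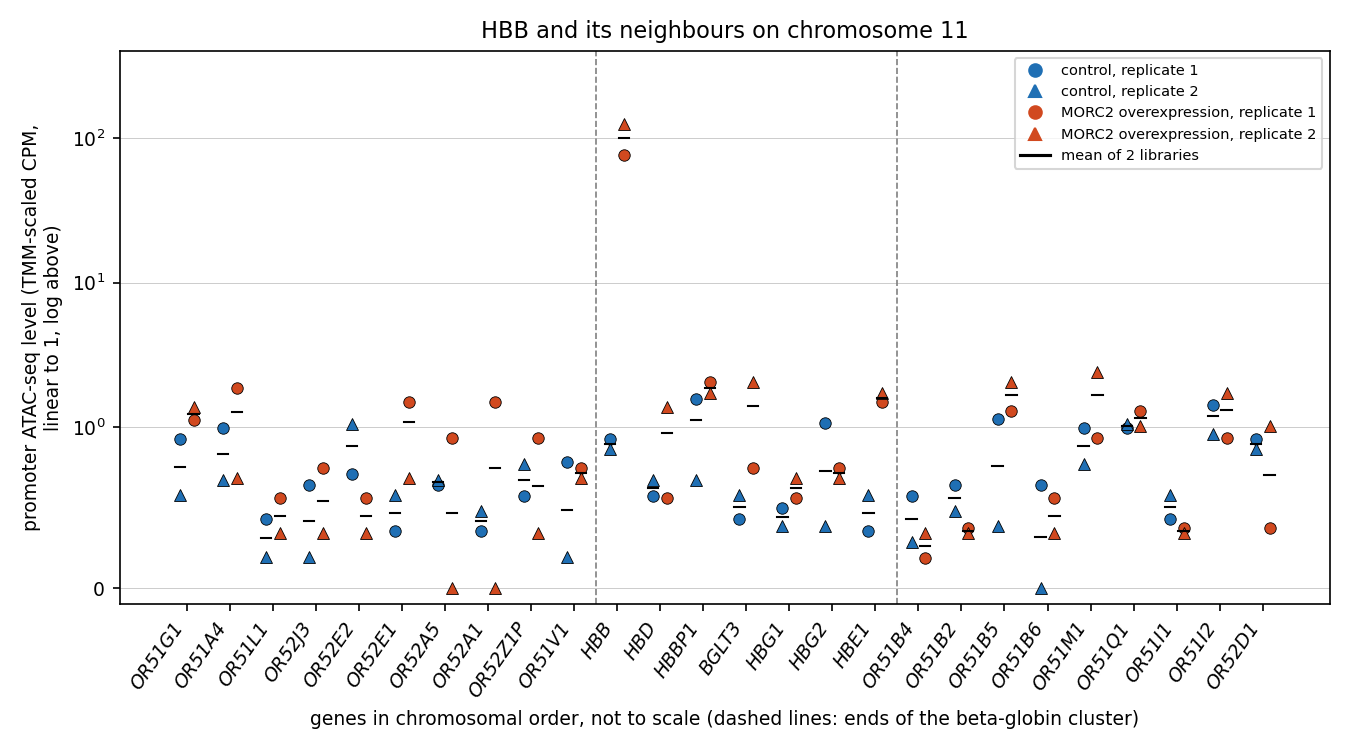
Level of the beta-globin cluster promoters and of the olfactory receptor promoters among the 10 counted on each side, in gene order, as TMM-scaled CPM on an axis that is linear to 1 and logarithmic above, with points for libraries and lines for means of 2. HBB rises to 76.6 and 124.0 CPM, while the olfactory receptor promoters have group means between 0.265 and 1.68 CPM.

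At the alpha-globin promoters no member was called, and log2 fold changes lay between −0.34 and 0.77. HBA1 and HBA2 encode the same adult alpha chain and are near-identical copies, so the split of reads between them is uncertain and the counts of both may be too low. HBA1 (Entrez 3039) had 58 and 50 counts in control against 20 and 11 in overexpression, or 4.13 and 4.81 CPM against 3.73 and 3.77 CPM. Both overexpression levels lay below both control levels, with a log2 fold change of −0.24 (SE 0.312, 95% interval from −0.85 to 0.37) and an edgeR adjusted p of 0.732. HBA2 (Entrez 3040) had 18 and 13 counts in control against 11 and 7 in overexpression, or 1.28 and 1.25 CPM against 2.05 and 2.40 CPM. For HBA2 the overexpression levels lay above the control levels, with a log2 fold change of 0.77 (SE 0.450, 95% interval from −0.11 to 1.65) and an edgeR adjusted p of 0.377. The 2 adult alpha genes thus had fitted values of opposite sign, each with a 95% interval that held 0.

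HBZ, the embryonic zeta gene (Entrez 3050), had 59 and 62 counts in control against 42 and 20 in overexpression. Its level was 4.20 and 5.96 CPM in control and 7.83 and 6.85 CPM in overexpression, without overlap. The log2 fold change was 0.59 (SE 0.242, 95% interval from 0.11 to 1.06), with an edgeR p of 0.0168 and an adjusted p of 0.178. Tested promoters within 1.5-fold of its control level had a median log2 fold change of 0.19, and for HBA2 the same median was 0.44 and for HBA1 0.23. These medians cover only promoters that passed the filter on low counts. Near the level of HBA2, with 18 and 13 control counts, that filter could be met through the overexpression libraries. HBZ (59 and 62) and HBA1 (58 and 50) had more control counts, and the source of the medians near their levels was not tested. The value of HBZ was −0.21 when libraries were scaled by their totals, which are mostly mitochondrial and moved the median of all promoters to −0.78.

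HBM (Entrez 3042), which encodes the mu chain, had 29 and 16 counts in control against 7 and 5 in overexpression, or 2.07 and 1.54 CPM against 1.30 and 1.71 CPM. HBQ1 (Entrez 3049), the theta gene, had 93 and 55 counts in control against 24 and 17 in overexpression, or 6.62 and 5.29 CPM against 4.47 and 5.83 CPM. The groups overlapped at both. Their log2 fold changes were −0.34 (SE 0.491) and −0.28 (SE 0.270), with edgeR adjusted p-values of 0.763 and 0.615. In control HBQ1 was the highest globin promoter at 5.96 ± 0.946 CPM (SD, n = 2), followed by HBZ at 5.08 ± 1.24 and HBA1 at 4.47 ± 0.477 CPM, and these neighbours in the order did not differ beyond their spread.

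Of the 5 other globin promoters tested, all in the alpha cluster, 0 were called by edgeR, DESeq2 or limma-voom, beside 2.47% of all tested promoters by edgeR, and 1 (HBZ) had an unadjusted edgeR p under 0.05, beside 17.2%. Of all 9 others, 4 (HBG1, HBE1, HBA2 and HBZ) had both overexpression levels above both control levels, which held for 25.5% of promoters with a count. HBA1 was the 1 member with both below, which held for 22.2%. Among tested promoters, where 24.8% had both above and 24.9% both below, these members were HBA2 and HBZ, and HBA1. The 5 alpha-globin promoters together held 18.3 and 18.8 CPM in control and 19.4 and 20.6 CPM in overexpression, a ratio of 1.08. Next to the cluster, NPRL3 on the HBZ side, whose introns hold the alpha-globin enhancers, had 166 and 126 counts in control against 46 and 41 in overexpression, and its log2 fold change was −0.18 (SE 0.188, edgeR adjusted p 0.660). LUC7L on the other side was at 0.14 (SE 0.154, edgeR adjusted p 0.679), and SNRNP25, the highest of the neighbours, at −0.13. Of 15 tested neighbours of the alpha cluster, 0 were called by edgeR, DESeq2 or limma-voom, beside 2.47% of all tested promoters by edgeR. An unadjusted edgeR p under 0.05 was met by 0 of the 15, beside 17.2%, and their log2 fold changes lay between −0.26 and 0.39.

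Globins outside the clusters were also compared. Myoglobin (MB) stores oxygen in muscle, CYGB is the widely used cytoglobin, NGB is neuroglobin and ADGB is androglobin. Of these 4, 0 were called by edgeR, DESeq2 or limma-voom, beside 2.47% of all tested promoters by edgeR. An unadjusted edgeR p under 0.05 was met by 1, beside 17.2%. ADGB, the highest, was at −0.43 (edgeR adjusted p 0.418). The 1 was CYGB, with 52 and 43 counts in control against 27 and 22 in overexpression, which gave a log2 fold change of 0.61 (SE 0.272) and an edgeR adjusted p of 0.224.

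The promoters of genes that control globin transcription were read from fixed lists. The median log2 fold change of 15 erythroid activators was 0.18. Of them, 1 rose and 0 fell by edgeR, beside 1.16% and 1.3% of all tested promoters. It was STAT5B, a transducer of erythropoietin signalling, with 113 and 77 counts in control against 71 and 31 in overexpression, which gave a log2 fold change of 0.66 (SE 0.192) and an edgeR adjusted p of 0.0409. This call was lost in DESeq2 (adjusted p 0.643), with loess scaling (edgeR adjusted p 0.203) and without any 1 of the 4 libraries (0.0639 to 0.500), and the fold change was −0.14 with library totals. In all, 4 of the 15 had an unadjusted edgeR p under 0.05, beside 17.2% of all tested promoters. The others were LMO2, a partner of GATA1 in transcription complexes, at 0.76 (edgeR adjusted p 0.273), the GATA1 cofactor gene ZFPM1 at −0.42 (0.0612) and FOXO3, the highest of the list, at −0.29 (0.104). GATA1 and KLF1, the leading erythroid factors, had log2 fold changes of 0.54 and 0.24, with edgeR adjusted p-values of 0.401 and 0.753.

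The 13 tested silencers of globin genes had a median log2 fold change of −0.18. Of them, 0 rose and 1 fell by edgeR, beside 1.16% and 1.3% of all tested promoters. ZBTB7A, a repressor of the fetal gamma genes, had 485 and 343 counts in control against 128 and 72 in overexpression, which gave a log2 fold change of −0.49 (SE 0.130) and an edgeR adjusted p of 0.016. The call was lost in DESeq2 (adjusted p 0.419), without control replicate 1 (edgeR adjusted p 0.135), without overexpression replicate 1 (0.239) and without overexpression replicate 2 (0.109). It was also lost with upper-quartile scaling (0.0547), loess scaling (0.239) and a mean count of at least 50 (0.0645). No other silencer tested had an unadjusted edgeR p under 0.05, and the highest of the list, NR2C2, was at −0.23 (edgeR adjusted p 0.293). BCL11A, the other main gamma repressor, had 455 and 323 counts in control against 167 and 83 in overexpression, and its log2 fold change was −0.08 (edgeR adjusted p 0.790).

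Of 12 promoters of haem synthesis and transport, 0 were called by edgeR, DESeq2 or limma-voom, beside 2.47% of all tested promoters by edgeR. An unadjusted edgeR p under 0.05 was met by 0 of the 12, beside 17.2%. Their median log2 fold change was −0.11, with a range from −0.45 to 0.43. ABCB10, a mitochondrial transporter gene and the highest of the list, was at −0.11 (edgeR adjusted p 0.586). ALAS2, the erythroid form of the first enzyme of the pathway, had 14 and 8 counts in control against 3 and 7 in overexpression, at the upper end of that range.

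**Figure D5:**
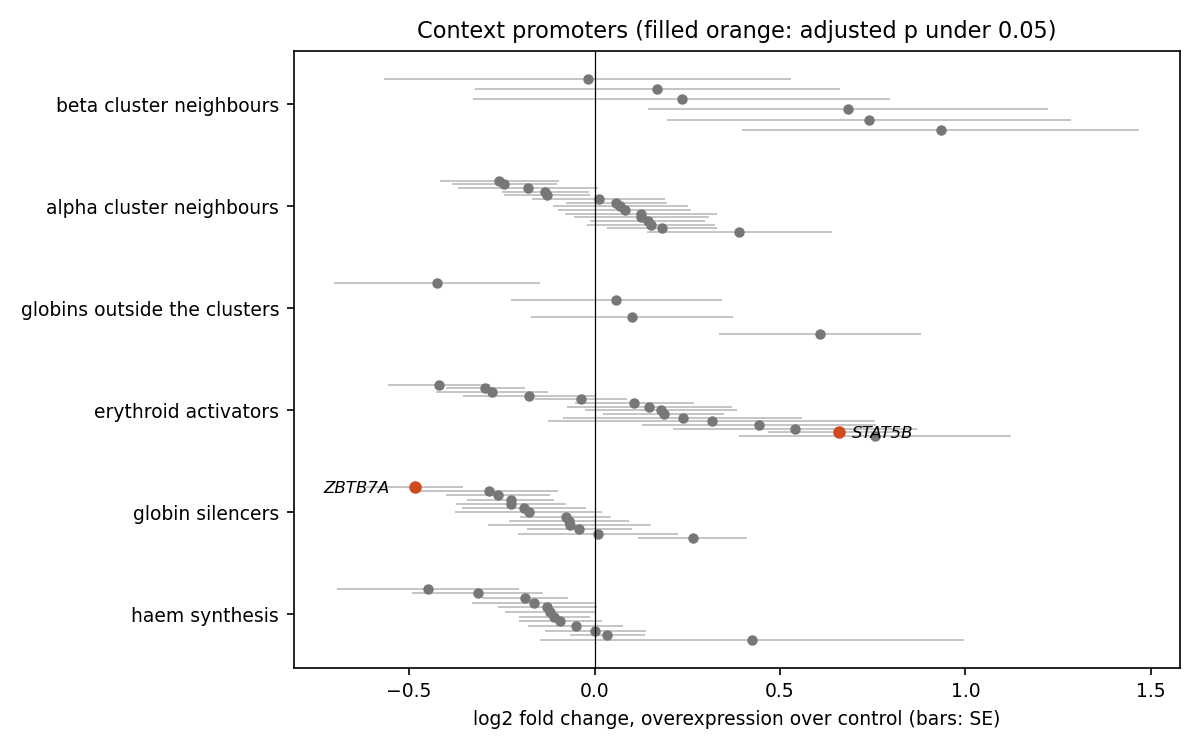
Log2 fold change (overexpression over control) of each tested promoter among the neighbours of the globin clusters and in the related gene lists, with standard errors as bars and promoters past the threshold in orange. STAT5B at 0.66 and ZBTB7A at −0.49 are the 2 in orange, and the haem synthesis promoters lie between −0.45 and 0.43.

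Promoters of marker genes were examined for the identity of the cells. The summed level of 17 erythroid markers was 53.6 to 57.3 CPM in control and 59.3 to 60.0 CPM in overexpression. Of these, 11 were tested and 1 rose by edgeR, beside 1.16% of all tested promoters. That was TSPO2, an erythroid membrane protein gene, with 23 and 21 counts in control against 22 and 16 in overexpression, which gave a log2 fold change of 1.35 (SE 0.345) and an edgeR adjusted p of 0.0147. Its call was lost in DESeq2, with library totals, with loess scaling and without any 1 library (edgeR adjusted p from 0.0608 to 0.222). The defining red cell marker AHSP, whose product stabilises free alpha chains, had 19 and 13 counts in control against 9 and 2 in overexpression. It was low in both groups.

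Renal developmental markers, read against the labelled kidney origin, included SALL1 at 32.0 CPM in control, whereas PAX8 and EYA1 were low at 1.67 and 1.74 CPM. Of those 6 markers, 0 were called by edgeR, DESeq2 or limma-voom, beside 2.47% of all tested promoters by edgeR. An unadjusted edgeR p under 0.05 was met by 3 of the 6, beside 17.2%. The summed level of the 6 was 83.9 and 88.2 CPM in control and 83.7 and 77.4 CPM in overexpression. Of 5 leukocyte markers, 3 were tested and 0 called by edgeR, DESeq2 or limma-voom, beside 2.47% of all tested promoters by edgeR. An unadjusted edgeR p under 0.05 was met by 1 of the 3, beside 17.2%. The 5 summed to 9.69 and 8.27 CPM in control and to 12.7 and 14.4 CPM in overexpression. PTPRC, the pan-leukocyte gene, was at 7 and 5 counts against 3 and 1. The 3 liver markers summed to 15.4 and 15.0 CPM in control and to 17.3 and 22.3 CPM in overexpression. Of the 2 tested, 1 rose by edgeR, beside 1.16% of all tested promoters. It was TTR (transthyretin), with 13 and 6 counts in control against 16 and 9 in overexpression, which gave a log2 fold change of 1.94 (SE 0.461) and an edgeR adjusted p of 0.0052, a call lost in DESeq2, with loess scaling and without any 1 library. Any part of these marker promoters in the HBB result was not tested.

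The peak lists, 1 per group without replicates, were compared on the globin chromosomes, and peaks were not assigned to genes. On chromosome 11 the overexpression list held 1770 peaks, of which 128 (7.23%) overlapped no control peak. The control list was longer there, with 2943 peaks, of which 1317 overlapped no overexpression peak. These 128 had a median fold enrichment of 3.81, and the highest reached 7.58. A higher fold enrichment was found at 593 overexpression peaks, and each of them overlapped a control peak with a fold of at least 6.05 and was at most 1.52 times as high as that control peak. Peak folds and promoter counts are unlike measures, and no peak was placed at HBB, so the peak lists do not describe HBB itself. The source of the HBB counts was not tested. On chromosome 16, 93 of 1211 overexpression peaks (7.68%) overlapped no control peak, with a highest fold of 6.52. In the other direction, 905 of 2004 control peaks overlapped no overexpression peak.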

How the data were processed

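As the study's methods describe, the authors trimmed paired ATAC-seq reads, aligned them with bowtie2 to the T2T-CHM13 assembly, removed reads of low mapping quality and duplicates (Picard). No shift for the Tn5 offset was described. The deposited table held raw counts per promoter, a 2 kb window around the start site, and counting over the whole window was assumed. The authors' MACS2 lists, 1 per group, gave a fold enrichment (a ratio over background) and a −log10 p. Peaks overlapping by at least 1 base were taken as shared.

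Symbols were matched by Entrez identifier to RefSeq (GRCh38.p14), which named 28763 promoters. Since the builds differ, this table served only for names and gene order, and for the sequences. Promoters were filtered with filterByExpr, scaled by TMM and tested with the two-sided quasi-likelihood F-test (legacy form) of edgeR 4.0.16 in R 4.3.3, with Benjamini-Hochberg adjustment over 23407 promoters and called at 0.05. Prior degrees of freedom were infinite, so the spread was shared between promoters of like abundance, and the common biological coefficient of variation was 4.28%. Standard errors came from that fit. Replicates differed by more than sampling noise (chi-square per degree of freedom 1.25 in control and 1.12 in overexpression). Alternatives used DESeq2 1.42.0, limma-voom (limma 3.58.1), other scalings and filters, a replicate block and 1 library left out. The fit was tested on simulated data.

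The members and lists were chosen with earlier results of these data known. The genes named were the members, the 5 next by fold and by profile, neighbours nearest to each cluster, and list members that were called, highest or defining; some list members are not reported here. Without molecular identifiers, reads are not independent molecules, and intervals cover counting error only.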

Additional observations from a re-analysis of the deposited data

How the results depend on the processing

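HBB had the highest log2 fold change in every alternative that held it; the requirement of at least 10 counts in every library removed it, because control replicate 2 had 9. Its value, 6.71, was 5.95 with library totals, and lay between 6.38 and 7.08 when 1 library was left out, the highest without overexpression replicate 1. Of the other globin promoters, 0 were called except with library totals, which called 3 (HBA1 at −1.04, HBM at −1.12 and HBQ1 at −1.07) and turned the sign of HBA2 (−0.018), HBZ (−0.21) and STAT5B (−0.14); under this scaling the median of all promoters was −0.78. A mean count of at least 50 left none of these globin promoters to test. The number of changed promoters, 577, became 16319 with library totals (99.7% lower), 54 with loess on abundance (40.7% lower), 368 where every library had to hold at least 10 counts, 218 with a mean count of at least 50, where fewer promoters were tested, 52 with DESeq2 without independent filtering (21.2% lower), and 101 to 206 without 1 library. Upper-quartile scaling gave 493 (22.1% lower). Same-numbered libraries deviated together with a correlation of 0.05 over 14976 promoters, and 2 pairs are too few to show pairing from the data; with the replicate block HBB was at 6.72, 0 other globin promoters were called and 488 promoters changed. In the related lists, 191 of 210 alternative counts of calls stayed within the limit of 1.5 times and 19 moved. Where no cause is given, the cause was not tested. The beta-globin promoters other than HBB held 2 to 15 counts in any library, which limits their precision.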
